A study of Mus musculus with 6 samples.

Results

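The facilitated hexose transporters of the SLC2 family were followed in RNA sequencing libraries of mouse brain microglia with and without the microRNA gene Mir137. The 7 genes, Slc2a1, Slc2a3, Slc2a4, Slc2a5, Slc2a6, Slc2a8 and Slc2a9, were taken by symbol from a deposited table of 24411 genes, and all 7 were among the 13403 genes that passed the filter on low counts. The 6 libraries were 3 from Mir137 knockout mice (gKO) and 3 from wild-type mice (gWT), all of strain C57BL/6J at 8 weeks of age, with microglia given as the cell type and brain as the tissue. The letter g stands before both genotypes in the labels and is not spelled out there. The series' design text gives 4 adult mice, without saying whether per genotype or in all, and 3 replicates for each genotype. The labels do not tie libraries to animals, so the p-values speak only of how far these libraries scatter, part of which may be technical. The comparison asks which transporter genes differ when the microRNA is missing.

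SLC2 genes encode GLUT proteins, which span the membrane and let hexoses pass down their concentration gradient without using energy. They differ in substrate and place: GLUT1, from Slc2a1, carries glucose across the blood-brain barrier and into glia, GLUT3, from Slc2a3, is a high-affinity glucose carrier of neurons and leukocytes, and GLUT5, from Slc2a5, carries fructose and is found on microglia in the brain. Once inside, glucose is trapped by hexokinases and fructose by ketohexokinase.

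The libraries held 14603882 to 17652977 counts, and the 7 genes together made up 0.0507% to 0.0577% of them. The gKO replicate 3 library stood apart, at 91.5 on a first principal component (39.0% of the variance) on which the other 5 lay between -37.7 and -3.45. Its deviation from the mean of the libraries also depended on gene length (Spearman rho = -0.44 across genes, which are not independent replicates, against -0.06 to 0.28 in the others). Mir137 had 0 counts in every library, and a library of this kind captures a microRNA precursor poorly, so it checks nothing about the labels. Xist, the RNA of the inactive X chromosome of females, was counted 0, 0 and 8 times in gKO against 2519, 2000 and 1830 times in gWT, while the Y-linked gene Ddx3y had 1220 to 1522 counts in each of the 6 libraries. The genotype and the presence of female RNA cannot be told apart in these libraries. The summed level of 14 microglia markers was 46770 to 52620 CPM (counts scaled to a common library total by the TMM method) in gKO and 46040 to 49850 CPM in gWT, the growth factor receptor gene Csf1r being the highest at a mean of 14020 CPM, and none of the 14 was at 0.

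A mature microRNA from Mir137, miR-137-3p, and the promoter windows of the pair of most abundant transporter genes are shown first. The capitals in the microRNA mark its seed, bases 2 to 8, which pairs with target RNAs. The windows, from RefSeq on GRCm38.p6, run from 250 bases before to 50 bases after the start site, on the + strand of chromosome 4, at chr4:119108495-119108794 for Slc2a1 and chr4:150119094-150119393 for Slc2a5. Their capitals mark short motifs found on either strand: the GC box GGGCGG, the CCAAT box, the TATA box TATAAA and the hypoxia response core ACGTG, none of which overlapped another motif. In Slc2a5, the second GC box ends where the third begins.
mmu-miR-137-3p: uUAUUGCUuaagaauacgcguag
Slc2a1 promoter: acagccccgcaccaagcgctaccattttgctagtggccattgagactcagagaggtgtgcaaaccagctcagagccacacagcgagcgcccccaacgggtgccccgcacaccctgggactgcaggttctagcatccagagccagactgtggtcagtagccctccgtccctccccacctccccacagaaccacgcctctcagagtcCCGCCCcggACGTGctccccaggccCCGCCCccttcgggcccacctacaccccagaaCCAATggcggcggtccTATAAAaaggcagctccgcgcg
Slc2a5 promoter: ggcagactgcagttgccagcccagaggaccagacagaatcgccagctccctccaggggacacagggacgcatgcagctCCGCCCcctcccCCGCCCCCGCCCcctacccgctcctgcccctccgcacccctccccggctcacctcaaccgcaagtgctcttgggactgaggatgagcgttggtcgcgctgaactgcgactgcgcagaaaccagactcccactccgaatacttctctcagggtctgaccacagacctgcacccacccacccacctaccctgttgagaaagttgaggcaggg

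The Slc2a1 window held 2 GC boxes, 1 hypoxia response core, 1 CCAAT box and 1 TATA box, and the Slc2a5 window held 3 GC boxes and none of the others. In Slc2a1 the CCAAT and TATA matches began after the start site, at positions 13 and 29. Its GC boxes and hypoxia response core lay before the start site, at -45, -20 and -36. Among 27025 promoter windows of the same length, 35.9% held a GC box, 19.7% the hypoxia response core, 37.9% a CCAAT box and 14.2% a TATA box. Among the 10189 windows of tested genes, the set to which the members belong, these shares were 64.2%, 25.3%, 38.5% and 6.89%. Windows were at hand for 5 of the 7 genes. None of the 5 held the seed match AGCAATA (2.19% of all windows and 1.11% of those of tested genes), the E-box CACGTG (7.24% and 10.1%) or a CRE (1.88% and 3.22%), and the AP-1 motif TGANTCA (7.93% and 4.71%) was present once, in Slc2a9. The seed match was also searched for in the 3′ UTR of the longest coding transcript of each gene (GENCODE M21). None of the 7 members held it, with UTRs of 551 to 2122 bases, against 10.3% of 12587 tested genes. The seed match is that of miR-137-3p, and sites of the other mature product of Mir137, miR-137-5p, were not searched for. These matches describe letters in the searched windows only.

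Slc2a5, the fructose transporter gene, rose in gKO. It lies on chromosome 4 from 150119283 to 150144169 (GENCODE M21, GRCm38, + strand). Its level was 247, 229 and 233 CPM in gKO replicates 1, 2 and 3 and 129, 125 and 145 CPM in gWT replicates 1, 2 and 3. Each gKO library was above each gWT library. The mean was 236 ± 9.54 CPM in gKO against 133 ± 10.5 CPM in gWT (SD over n = 3 libraries a group, as for every mean that follows), a log2 fold change of 0.83 (SE 0.12, 95% interval 0.55 to 1.11) with an adjusted p = 0.0312 (edgeR quasi-likelihood test, Benjamini-Hochberg over all 13403 genes). Its p was the 49th smallest among the genes tested.

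Slc2a3, the gene of the high-affinity glucose carrier GLUT3, rose as well, from a lower level. It is annotated on chromosome 6 from 122727809 to 122801640 (- strand). Its level was 38.9, 43.1 and 38.1 CPM in the gKO libraries and 17.7, 21.6 and 16.3 CPM in the gWT libraries. The groups did not overlap, and the lowest gKO library was well above the highest gWT library. The mean was 18.5 ± 2.73 CPM in gWT against 40.04 ± 2.71 CPM in gKO, a fold of 2.16 (95% interval 1.64 to 2.85; log2 fold change 1.11 with SE 0.17, edgeR adjusted p = 0.0383). In the authors' deposited table of genes higher in gKO, Slc2a3 has a log2 fold change of 1.12, with SE 0.21 and adjusted p 1.3e-05. The genes in that table all have a log2 fold change of at least 1.03, and Slc2a5 is not among them.

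Slc2a1, the gene of the barrier and glial glucose carrier GLUT1, was at lower values in gKO but did not pass the threshold. It lies on chromosome 4 from 119108711 to 119137983 (+ strand), and 105 of its exonic bases overlap the antisense gene Gm12868. Its level was 198, 185 and 178 CPM in gKO and 307, 263 and 272 CPM in gWT. All gKO libraries were below all gWT libraries. The means were 187 ± 10.04 CPM and 280 ± 23.2 CPM, with a log2 fold change of -0.58 (SE 0.12, 95% interval -0.87 to -0.30). The adjusted p by edgeR was 0.116. DESeq2 (adjusted p = 0.00428) and limma-voom with sample quality weights (adjusted p = 0.00504) called it lower, and so did edgeR without gKO replicate 3 (adjusted p = 0.00081).

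**Figure D1:**
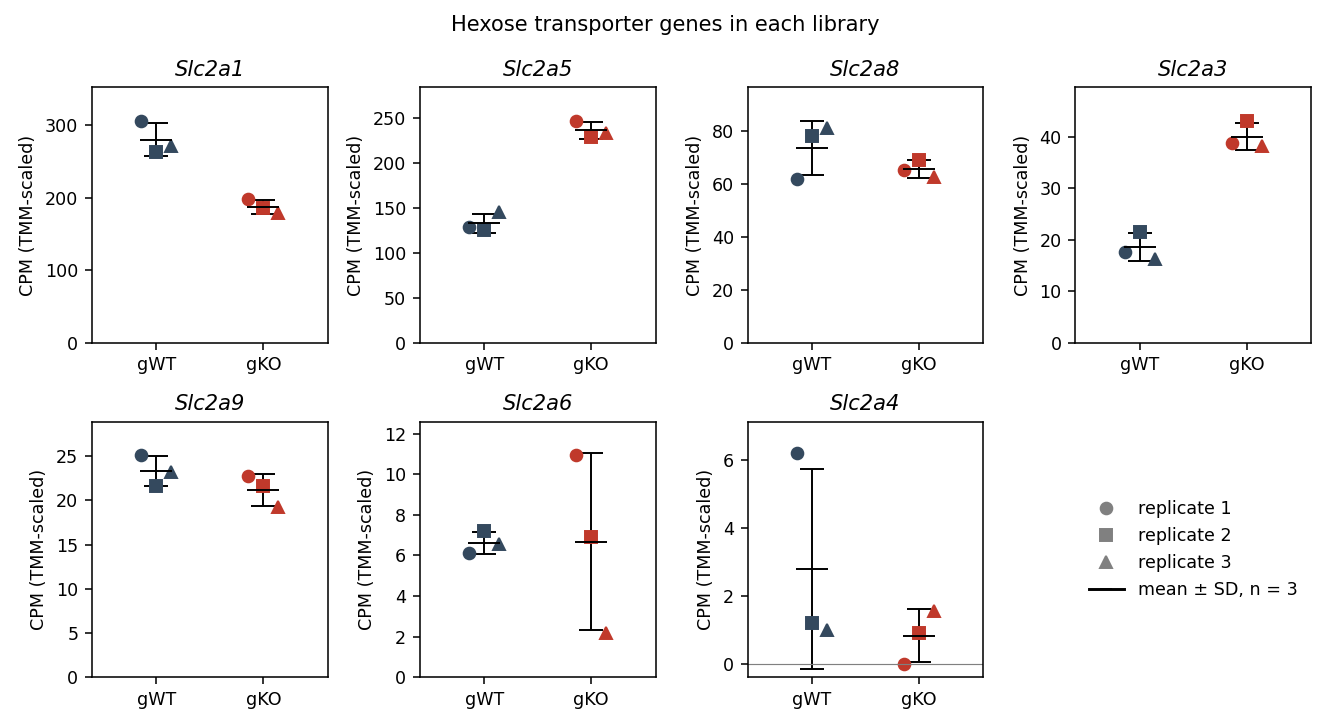
CPM scaled by TMM (vertical axes, each with its own range) of the 7 transporter genes in gWT (dark) and gKO (red), 1 symbol per library by replicate number, with mean and SD (n = 3). The groups do not overlap for Slc2a1 (178 to 198 against 263 to 307 CPM), Slc2a5 (229 to 247 against 125 to 145 CPM) and Slc2a3, and overlap in the other 4 genes.

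By edgeR, 2 of the 7 genes were higher and 0 lower in gKO, where 0.395% of all genes tested were called higher and 0.231% lower. The groups did not overlap in 3 of the 7, against 21.3% of all genes tested, and 3 had an unadjusted p under 0.05, against 10.9%. The median log2 fold change of the 7 was -0.14, beside 0.01 over all genes. DESeq2 called Slc2a5 and Slc2a3 higher and Slc2a1 lower, where it called 1.2% of all genes higher and 1.57% lower. The same calls came from limma-voom with quality weights (2.13% higher and 1.29% lower over all genes) and from edgeR without gKO replicate 3 (3.99% and 3.82%). Limma-voom without weights called Slc2a5 and Slc2a3 higher and none lower (0.388% and 0.246% over all genes). Leaving out single libraries changed the calls: Slc2a5 and Slc2a3 were called without gKO replicate 3 (adjusted p = 2.4e-05 and 0.000747). Without any other single library neither was called, the adjusted p lying between 0.0959 and 0.317 for Slc2a5 and between 0.117 and 0.320 for Slc2a3 in edgeR. Their log2 fold changes lay between 0.79 and 0.89 and between 1.03 and 1.23 over all 15 alternatives tried.

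**Figure D2:**
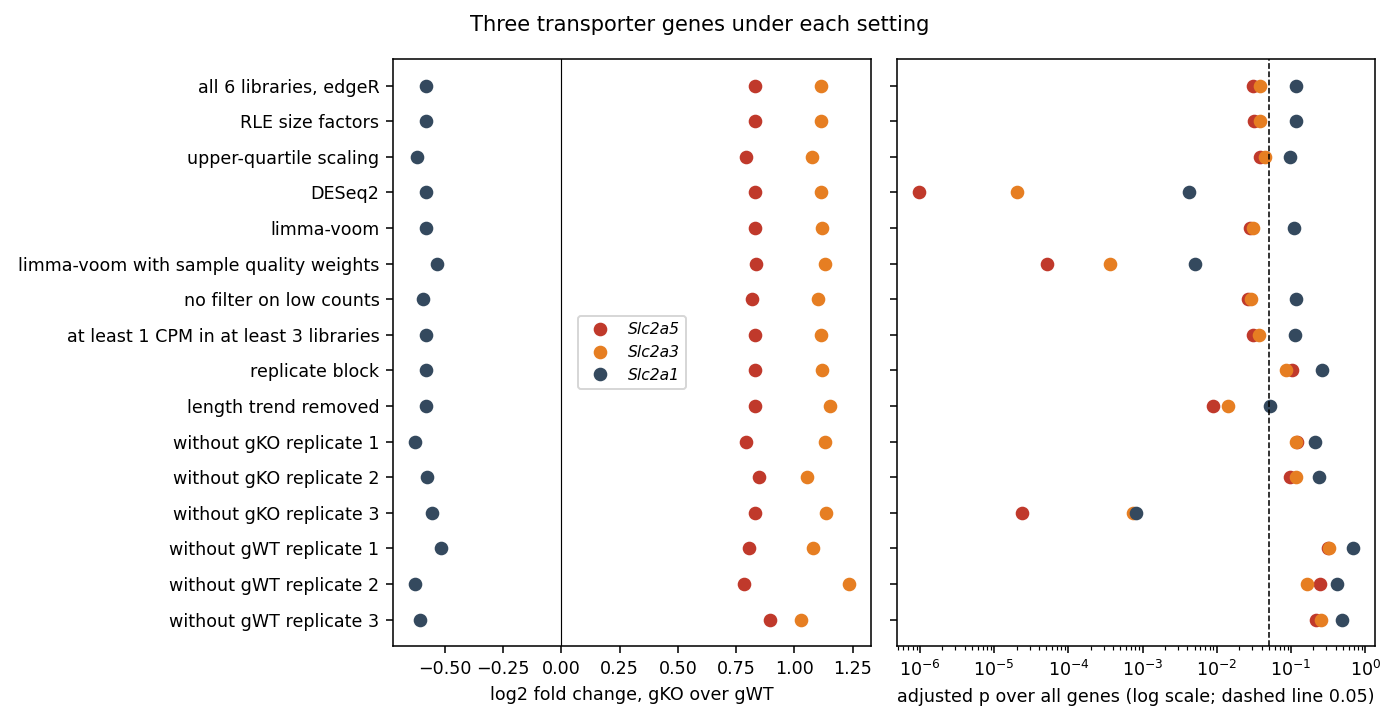
Log2 fold change of gKO over gWT (left) and adjusted p over all genes on a log axis (right) of Slc2a5, Slc2a3 and Slc2a1 with all 6 libraries and under 15 other settings, 1 row each, with a dashed line at an adjusted p of 0.05. Over the 15 settings the fold changes lie between 0.79 and 0.89, 1.03 and 1.23, and -0.63 and -0.51, while the adjusted p lies on both sides of the line for each gene.

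The remaining members were not called. Slc2a8, which encodes the mainly intracellular transporter GLUT8, had 65.3, 69.2 and 62.6 CPM in gKO and 62.2, 78.1 and 81.3 CPM in gWT. Slc2a9, whose protein GLUT9 carries urate, had 22.8, 21.6 and 19.2 CPM in gKO and 25.1, 21.7 and 23.2 CPM in gWT. In both genes the groups overlapped, and the 95% interval of the log2 fold change ran from -0.51 to 0.17 for Slc2a8 (edgeR adjusted p = 0.761) and from -0.53 to 0.26 for Slc2a9 (edgeR adjusted p = 0.836). Changes beyond 1.5-fold lie outside both intervals.

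Slc2a6 and Slc2a4 were low and scattered. Slc2a6 encodes GLUT6, a transporter of intracellular membranes, and had 10.9, 6.93 and 2.19 CPM in gKO against 6.13, 7.20 and 6.56 CPM in gWT. The gKO libraries lay on both sides of the gWT libraries, replicate 3 being the lowest. Its log2 fold change was 0.02 (SE 0.51, edgeR adjusted p = 0.995), 0.42 without gKO replicate 3 and -0.54 without gKO replicate 1. Slc2a4, the gene of the insulin-responsive carrier GLUT4 of muscle and fat, was counted 0, 13 and 22 times in gKO against 105, 21 and 17 times in gWT. A count of 0 in gKO replicate 1 allows a level of up to 0.172 CPM, taking 3 counts as the upper limit for counting error alone. Replicate 1 of gWT, at 6.19 CPM, held most of the gWT counts, and the log2 fold change of -1.78 (SE 1.25, edgeR adjusted p = 0.677) was -0.44 without that library. It was -1.19 without gKO replicate 1, -2.68 without gKO replicate 3 (unadjusted p = 0.0483 by edgeR) and -3.23 by limma-voom with quality weights, and no alternative called it.

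**Figure D3:**
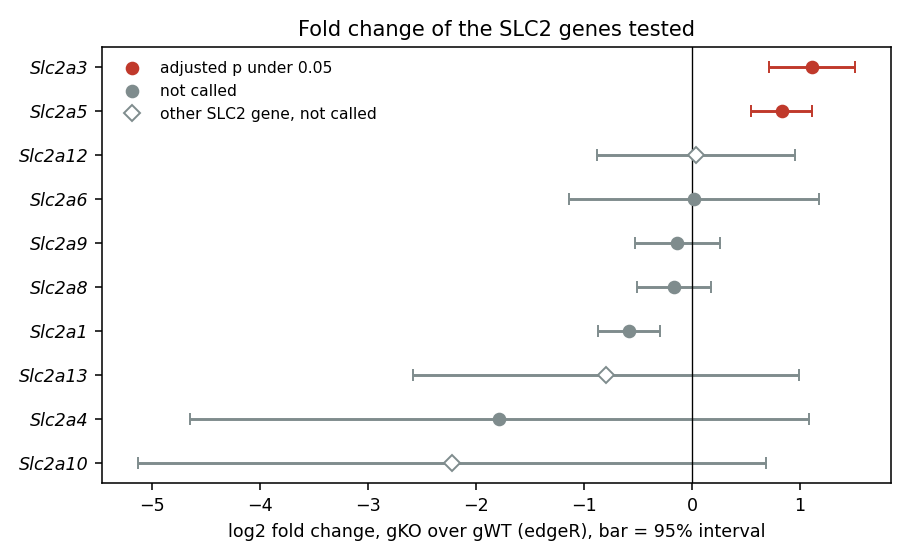
Log2 fold change of gKO over gWT by edgeR (horizontal axis) with its 95% interval for the 7 transporter genes (filled circles) and the 3 other SLC2 genes that passed the filter (open diamonds). Slc2a3 and Slc2a5 (red) have an adjusted p under 0.05, and the intervals of Slc2a4 and Slc2a10 are the widest.

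Levels were compared between genes per kilobase of exon, as CPM divided by the length of all annotated exons of the gene (RPKM). In gWT, Slc2a1 was highest with 79.95 ± 6.62 RPKM and Slc2a5 next with 39.1 ± 3.10 RPKM. In gKO the order of this pair was the other way round, with Slc2a5 at 69.5 ± 2.80 RPKM and Slc2a1 at 53.4 ± 2.87 RPKM. Slc2a8 followed in both groups, at 20.5 ± 1.04 RPKM in gKO and 23.0 ± 3.20 RPKM in gWT. Slc2a3 was above Slc2a9 in gKO (5.53 ± 0.37 and 4.17 ± 0.36 RPKM), whereas Slc2a9 was above Slc2a3 in gWT (4.59 ± 0.34 and 2.55 ± 0.38 RPKM). Slc2a6 (2.08 ± 1.36 and 2.07 ± 0.17 RPKM) and Slc2a4 (0.23 ± 0.22 and 0.80 ± 0.85 RPKM) came last in gKO and gWT. Neighbours in either order did not overlap between their libraries. With the longest transcript as the length, the order was the same, and Slc2a3 overlapped Slc2a9 in gKO and Slc2a6 in gWT.

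The summed level of the 7 genes was 535 to 583 CPM in gKO and 518 to 553 CPM in gWT, so the groups overlapped in the sum while its make-up differed. Slc2a1 gave 33.3% to 34.0% of the 7 genes' counts in gKO and 49.8% to 55.5% in gWT. Slc2a5 gave 41.2% to 43.6% in gKO and 23.3% to 26.6% in gWT. The ratio of Slc2a5 to Slc2a1 counts within a library does not depend on the scaling between libraries, and it was 1.24 to 1.31 in gKO and 0.42 to 0.53 in gWT. This ratio was chosen after the values were seen and combines the fold changes given above, so it has no test of its own.

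**Figure D4:**
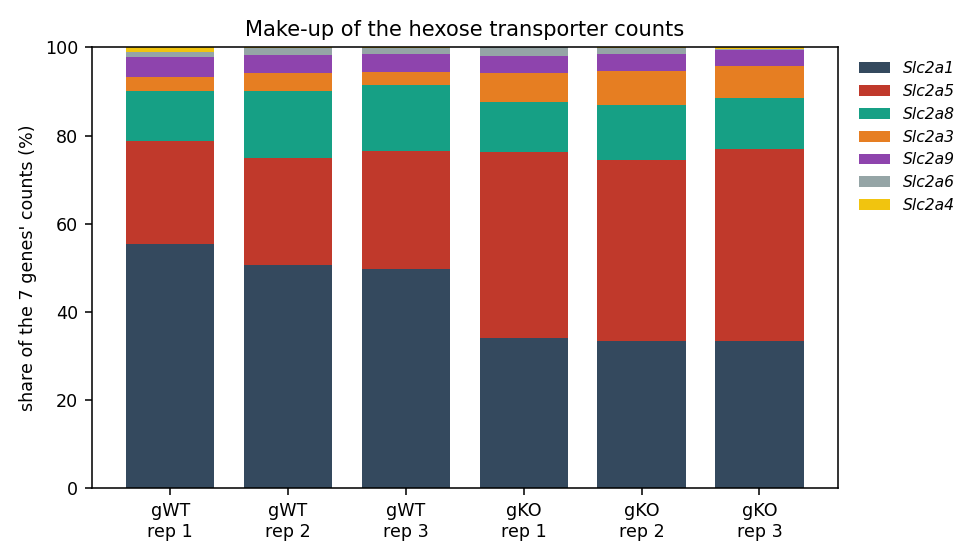
Share of each gene in the summed counts of the 7 transporter genes (vertical axis, percent), 1 bar per library. Slc2a1 is the largest part of all 3 gWT bars (49.8% to 55.5%) and Slc2a5 the largest part of all 3 gKO bars (41.2% to 43.6%).

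Patterns over the 6 libraries were compared by the root mean square difference between log2 CPM profiles centred on each gene's mean, in which 0 is an identical pattern. Among 8661 genes of at least 10 CPM, the nearest to Slc2a5 were the transcription factor gene Klf4 (0.073), the matrix gene Olfml2b (0.080) and the alpha-arrestin gene Arrdc3 (0.088), where the median gene was at 0.472. The nearest to Slc2a3 were the haptoglobin gene Hp (0.113) and the growth-restraining early genes Btg2 (0.116) and Klf10 (0.116), with a median of 0.610. Hp is also among the monocyte markers summed below. Slc2a1 was nearest to the calcium sensor gene Ncs1 (0.053), the peptidase gene Pgpep1 (0.065) and Tmco3 (0.075), with a median of 0.391. Slc2a5 and Slc2a3 were 0.240 apart, whereas Slc2a1 was 0.713 from Slc2a5 and 0.866 from Slc2a3. Slc2a8 was nearest to Rpn1, Lpl and Tmem234 (0.053 to 0.059) and Slc2a9 to Actr1a, Tgfa and Ankrd27 (0.037 to 0.040). The same genotype difference enters all of these distances, and they are given as a description.

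Markers of other cells moved with the genotype too. In bulk RNA, fewer cells of a type and less RNA per cell cannot be told apart. The summed level of 15 endothelial markers was 614 to 820 CPM in gKO and 1298 to 1679 CPM in gWT, all 15 had a negative log2 fold change (median -0.89) and none was at 0 in all libraries. Of these 15, 13 had an unadjusted edgeR p under 0.05, against 10.9% of all genes tested. EdgeR called 1 of them lower, DESeq2 7, limma-voom 1, limma-voom with quality weights 6, and edgeR without gKO replicate 3 12. Slc2a1 is known for its high level in brain endothelium. The ratio of the gKO to the gWT mean was 0.52 for the summed endothelial markers and 0.67 for Slc2a1, and the part of endothelial RNA in the Slc2a1 values was not tested. Mural markers (101 to 147 against 226 to 322 CPM) and astrocyte markers (274 to 314 against 379 to 420 CPM) were lower in sum in the gKO libraries, with 1 of 10 and 0 of 10 called by edgeR (8 and 4 at an unadjusted p under 0.05). Of the mural markers, DESeq2 called 3 lower, limma-voom 1, limma-voom with quality weights 2 and edgeR without gKO replicate 3 5. Of the astrocyte markers, 1 was called lower by DESeq2, 1 by limma-voom 2 by limma-voom with quality weights and 2 by edgeR without gKO replicate 3.

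GLUT3 is also a carrier of leukocytes, and neutrophil markers summed to 932 to 1357 CPM in gKO and 593 to 708 CPM in gWT. All 14 tested had a positive log2 fold change (median 1.08), 10 had an unadjusted edgeR p under 0.05 and none was at 0 in all libraries. EdgeR and limma-voom called 2 of them higher, and DESeq2, limma-voom with quality weights and edgeR without gKO replicate 3 called 7 each. The most abundant neutrophil marker, Csf3r, hardly differed, with 329 ± 46.1 CPM in gKO against 327 ± 24.1 CPM in gWT (log2 fold change 0.01, edgeR adjusted p = 0.988). The mean neutrophil sums were 1084 and 666 CPM. Of 12 monocyte markers 9 had a positive and 3 a negative log2 fold change (median 0.48), with 6 at an unadjusted edgeR p under 0.05. EdgeR, DESeq2 and limma-voom called 2 higher, and limma-voom with quality weights and edgeR without gKO replicate 3 called 3 higher. Their summed level was nevertheless 458 to 649 CPM in gKO and 668 to 926 CPM in gWT. The most abundant, Fn1, had a mean of 277 CPM in gKO against 552 CPM in gWT, within mean sums of 571 and 785 CPM. The part of these cells in the Slc2a3 values was not tested. The microglia markers overlapped in sum between the groups, with 0 of 14 called by edgeR, DESeq2 and limma-voom. Limma-voom with quality weights called 2 lower, and edgeR without gKO replicate 3 called 1 higher and 2 lower. With all 6 libraries, 2 had an unadjusted edgeR p under 0.05. Border macrophage markers summed to 1674 to 1773 CPM in gKO and 1586 to 1642 CPM in gWT. Of these 10, edgeR, DESeq2 and limma-voom called 0, and 0 had an unadjusted edgeR p under 0.05. Limma-voom with quality weights called 1 lower, and edgeR without gKO replicate 3 called 1 higher and 2 lower. Neuronal markers, of the other main cell type with Slc2a3, were low in both groups, summing to 20.1 to 23.0 CPM in gKO and 18.4 to 27.0 CPM in gWT. The sums of choroid plexus, erythroid and lymphocyte markers also overlapped between the groups. The choroid plexus sum was mostly the transthyretin gene Ttr (a mean of 1657 of 1705 CPM in gKO), while all 8 tested markers of that list had a negative log2 fold change (median -0.84), 3 of them at an unadjusted edgeR p under 0.05. EdgeR and both limma-voom fits called 0 of these 8, DESeq2 1 lower and edgeR without gKO replicate 3 2 lower. Of 4 erythroid markers tested, edgeR and limma-voom called 0 (1 at an unadjusted p under 0.05), DESeq2 and limma-voom with quality weights 1 lower each, and edgeR without gKO replicate 3 2 lower. The 10 oligodendrocyte markers summed to 401 to 466 CPM in gKO against 363 to 393 CPM in gWT. Of the 9 tested, 1 was called higher by edgeR, DESeq2 and both limma-voom fits, with 1 lower by DESeq2 and by limma-voom with quality weights. EdgeR without gKO replicate 3 called 1 higher and 1 lower.

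**Figure D5:**
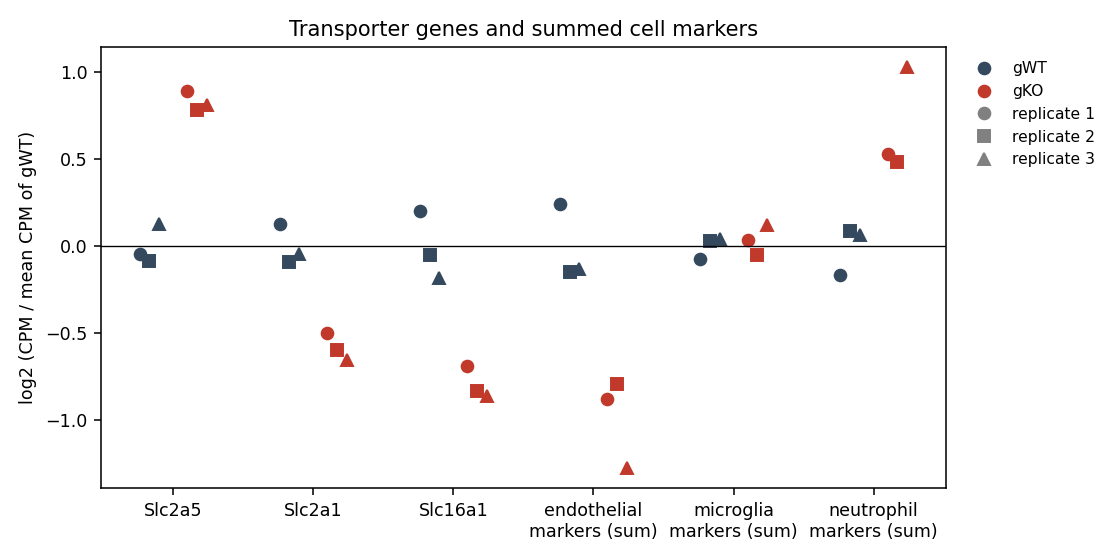
Log2 ratio of CPM to the gWT mean (vertical axis) in each library for Slc2a5, Slc2a1, the monocarboxylate transporter gene Slc16a1 and the summed endothelial (14 genes, without Slc16a1), microglia and neutrophil markers. The gKO libraries (red) lie above the gWT libraries (dark) for Slc2a5 and the neutrophil markers, below them for Slc2a1, Slc16a1 and the endothelial markers, and overlap them for the microglia markers.

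Of the 5 other SLC2 genes, Slc2a2 and Slc2a7 had 0 counts in every library and 3 passed the filter. By edgeR, DESeq2 and both limma-voom fits 0 of the 3 were called, and 0 had an unadjusted edgeR p under 0.05. Slc2a12, an insulin-sensitive transporter gene, had 8.47 ± 2.23 CPM in gKO against 8.25 ± 4.25 CPM in gWT, 407 of its exonic bases overlapping Tbpl1 on the opposite strand. Slc2a13, which encodes a proton-coupled myo-inositol carrier, had 1.03 ± 0.77 CPM in gKO against 1.80 ± 0.44 CPM in gWT, with overlapping groups. Slc2a10 was counted 2, 0 and 8 times in gKO against 28, 16 and 11 times in gWT, with a log2 fold change of -2.22 (SE 1.27, edgeR adjusted p = 0.592). The groups of Slc2a10 did not overlap, at counts too low for a narrow interval.

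The enzymes that take up imported hexoses were little different as a list. Of 24 tested genes edgeR called 0, with 0 at an unadjusted p under 0.05 and a median log2 fold change of -0.02. DESeq2 and limma-voom also called 0, limma-voom with quality weights 1 higher, and edgeR without gKO replicate 3 1 higher and 1 lower. Khk, the ketohexokinase gene that acts on fructose, had 45.1 ± 12.9 CPM in gKO against 38.5 ± 3.01 CPM in gWT (log2 fold change 0.23 with SE 0.22, edgeR adjusted p = 0.775). The hexokinase genes had log2 fold changes of -0.29 for Hk1, -0.03 for Hk2 and -0.15 for Hk3, with edgeR adjusted p from 0.705 to 0.982. Hk2 had 244, 242 and 140 CPM in gKO against 205, 214 and 218 CPM in gWT, its gKO replicate 3 being the low one. Pfkfb3, the kinase that drives glycolytic flux, showed the same: 219, 230 and 127 CPM in gKO against 132, 138 and 142 CPM in gWT. Its adjusted p by edgeR was 0.469, and 4.02e-05 without gKO replicate 3.

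Sugar transporters of other families gave 0 calls among 9 tested genes in edgeR, DESeq2 and both limma-voom fits, with 0 at an unadjusted edgeR p under 0.05. The smallest p was that of Slc37a3, of the sugar-phosphate exchanger family, at 13.5 ± 0.98 CPM in gKO against 18.7 ± 3.30 CPM in gWT (edgeR adjusted p = 0.469). Among 9 genes of lactate export, edgeR called 0 (3 at an unadjusted p under 0.05), DESeq2 1 lower, limma-voom 0 and limma-voom with quality weights 2 lower. Without gKO replicate 3, edgeR called 3 of these lower and 0 higher. Slc16a1, the monocarboxylate transporter gene MCT1 and itself one of the endothelial markers, had 115, 104 and 102 CPM in gKO against 214, 179 and 164 CPM in gWT. Its groups did not overlap, and the log2 fold change was -0.79 (SE 0.14, edgeR adjusted p = 0.0602, and 0.000535 without gKO replicate 3).

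Regulators that move GLUT proteins to and from the surface gave 0 calls by edgeR among 23 tested genes (1 at an unadjusted p under 0.05), with 1 higher by DESeq2, 0 by limma-voom and 1 higher by limma-voom with quality weights. Without gKO replicate 3, edgeR called 2 of these regulators higher and 0 lower. Txnip, the arrestin that takes GLUT1 off the surface, had 1281 ± 67.8 CPM in gKO against 1345 ± 57.4 CPM in gWT (log2 fold change -0.07 with SE 0.12). The smallest p was that of the vesicle fusion gene Vamp3, with 135, 128 and 165 CPM in gKO against 90.4, 97.2 and 100 CPM in gWT (log2 fold change 0.57 with SE 0.14, edgeR adjusted p = 0.167). Leaving out gKO replicate 3 gave Vamp3 a log2 fold change of 0.45 (edgeR adjusted p = 0.00529). Of 30 transcription factors and kinases known to act on SLC2 genes, edgeR called 0 (3 at an unadjusted p under 0.05), DESeq2 1 lower, limma-voom 0 and limma-voom with quality weights 2 higher. Without gKO replicate 3, edgeR called 4 of them higher and 2 lower. Hif1a, the oxygen-sensing factor that drives Slc2a1 and Slc2a3 in hypoxia, had 156, 175 and 201 CPM in gKO against 140, 128 and 136 CPM in gWT (log2 fold change 0.40 with SE 0.14, edgeR adjusted p = 0.325). Epas1, the related factor of endothelium, had 135, 113 and 82.1 CPM in gKO against 263, 175 and 195 CPM in gWT (log2 fold change -0.94 with SE 0.22, edgeR adjusted p = 0.156). Both passed the threshold when gKO replicate 3 was left out. The log2 fold change was then 0.29 for Hif1a (edgeR adjusted p = 0.043) and -0.78 for Epas1 (edgeR adjusted p = 0.037).

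Hypoxia-inducible genes went in both directions, 9 of 15 positive and 6 negative, with 1 called higher and 1 lower by edgeR (5 at an unadjusted p under 0.05). Limma-voom also called 1 higher and 1 lower. DESeq2 and limma-voom with quality weights called 2 higher and 1 lower, and edgeR without gKO replicate 3 called 3 higher and 2 lower. The list, Ddit4 included, summed to 941.9 to 999.5 CPM in gKO and 777 to 802.8 CPM in gWT. Ddit4, a stress-induced inhibitor of mTOR, rose from 82.2 ± 8.38 CPM in gWT to 225 ± 49.8 CPM in gKO (log2 fold change 1.45 with SE 0.19, edgeR adjusted p = 0.0221). Ndrg1, a stress-responsive gene, fell from 33.8 ± 2.81 CPM in gWT to 14.4 ± 1.52 CPM in gKO (log2 fold change -1.23 with SE 0.18, edgeR adjusted p = 0.0305). These were the only calls by edgeR among 113 tested genes of the 7 lists around the transporters, 1.77% against 0.627% of all genes in either direction. At an unadjusted edgeR p under 0.05 were 12 of the 113, 10.6% against 10.9% of all genes. Without gKO replicate 3, 18 of 113 were called, 15.9% against 7.81% of all genes.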

How the data were processed

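RNA from 3 gKO and 3 gWT microglia libraries was measured. The authors deposited expected counts per gene symbol, not normalized. Per the submitters' processing notes, RSEM, STAR 2.7.9a, DESeq2 and the builds GRCm38 and mm10 were used, in roles that the notes leave out. Annotation and strandedness are not given there. The authors deposited lists with, per the file headers, a mean signal of normalized counts, a log2 fold change, its standard error and statistic (scores) and p-values. Columns were mapped to libraries by name.

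Counts were rounded and tested with edgeR 4.0.16 (R 4.3.3) on genotype alone, with TMM scaling, the default filter, a robust quasi-likelihood fit and an adjusted p under 0.05. SE is the absolute log2 fold change over the square root of F. The fit was tried on simulated data with equal dispersion for all genes and no library standing apart. That setting is unlike these data, in which gKO replicate 3 stood apart. Alternatives used DESeq2 1.42.0 and limma 3.58.1. Depth limits genes with few counts: the limit of a 0 is 0.171 to 0.212 CPM. Replicates differed by more than sampling noise (chi-square per degree of freedom of at least 6.49). Of 24411 symbols, 23365 matched GENCODE M21 by name and 677 by synonym. Named were all members, the SLC2 genes tested, called or smallest-p list genes, 6 set genes and each member's 3 nearest patterns. Members and lists were chosen with earlier results of these data known. RefSeq supplied the printed sequences.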

Additional observations from a re-analysis of the deposited data

How the results depend on the processing

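Over all genes, 84 were called with all 6 libraries, 414 by DESeq2, 458 by limma-voom with sample quality weights, 178 after each library's trend with gene length was removed, and 0 to 1079 when 1 library was left out. The lowest value, 0, came without any 1 gWT library (729 to 921 genes at an unadjusted edgeR p under 0.05), and the highest without gKO replicate 3. Of the 7 transporter genes, 0 to 3 were called when 1 library was left out. Of the genes around them, 18 were called without gKO replicate 3. With the replicate number as a block, 18 genes and 0 of the 7 transporter genes were called (3 of the 7 at an unadjusted p under 0.05), with adjusted p of 0.102 for Slc2a5 and 0.0844 for Slc2a3. The deviations of same-numbered libraries from their group means correlated at r = 0.05, -0.05 and 0.02. Those of differently numbered libraries lay between -0.10 and 0.09, so no pairing by number was seen. With 3 libraries a group, and gKO replicate 3 far from the others, this check cannot decide whether the numbers pair them. The sign of Slc2a6 turned under upper-quartile scaling (-0.0289), limma-voom (-0.20) and the block (-0.22), and it ranged from -0.54 to 0.42 when 1 library was left out, including -0.01 without gKO replicate 2 and -0.04 without gWT replicate 1. The signs of the other 6 genes held under all 15 alternatives. The cause of these changes was not tested. All 6 fits that left out 1 library had fewer residual degrees of freedom, whether more genes or fewer were called.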
